A study of Mus musculus with 24 samples.

Results

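The healing of normal skin grafts was followed by comparing C57BL/6 donor skin on C57BL/6 recipients at 28 days after grafting (28 dpg, 3 libraries) with the same kind of graft at 14 days after grafting (14 dpg, 3 libraries). The libraries were chosen by their titles and made up 6 of the 24 RNA sequencing libraries of the series. Donor and recipient shared a strain, and no agent, transgene or mutant allele was named for these grafts. The tissue was labelled grafted ear skin. The ages and sexes of donors and recipients, and whether the 3 libraries of a day came from separate animals, were not given in the labels used here, so p-values measured the spread between these samples only. A further 6 libraries, from K14E7 donor skin on C57BL/6 recipients at 28 dpg and 14 dpg (3 each), served to test whether the effect of the day differed with the donor. K14E7 skin carries the papillomavirus oncogene E7 under the keratin 14 promoter, which is active in basal keratinocytes. The 6 libraries of CD1dKOxK14E7 donor skin, also on C57BL/6 recipients (CD1d-/-, 3 at each day), entered the estimate of the spread between libraries and no comparison. Ungrafted ear skin of C57BL/6 mice aged 8 weeks (3 libraries) was set beside the grafts without a test. C57 and E7 grafts of both days were run on the same lane of the same flow cell.

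A skin graft is cut off from its blood and nerve supply and is healed in by its host. In wounded epidermis, keratinocytes switch on keratins 6, 16 and 17 and a set of small cornified envelope proteins, proliferate, and return to normal differentiation once the barrier has closed. Below them, fibroblasts and myofibroblasts lay down a provisional matrix that is remodelled later, hair follicles pass through cycles of growth and rest, and nerve, fat and muscle regenerate at their own pace.

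The mitosis, hair keratin and wound-associated epidermal genes described below often hold shared short sequence motifs near their starts, and for each group the starts of 2 of its genes are shown to let the motifs be seen beside the values. Each is the 300-base window from 250 bases before to 50 bases after the gene's start, 5′ to 3′ on the gene's own strand, from RefSeq (GRCm38.p6), with the motif in capitals. The motifs and genes were chosen with results of these data known (the members with the lowest adjusted p that held both motifs of their group), a match is a description of letters, and binding was not measured.

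Mitosis genes often hold TTTGAA, the letters of the cell cycle homology region bound through the MuvB complex, and CCAAT, the letters bound by NF-Y, on either strand (TTCAAA and ATTGG are the same motifs on the opposite strand). Of 30 mitosis genes 24 had a window. TTTGAA stood in 70.8% of the 24 windows against 18.1% of 27025 windows of all genes, CCAAT in 79.2% against 37.9%, and both in 66.7% against 7.12%.
Cdk1 (chr10:69352863-69353162, minus strand): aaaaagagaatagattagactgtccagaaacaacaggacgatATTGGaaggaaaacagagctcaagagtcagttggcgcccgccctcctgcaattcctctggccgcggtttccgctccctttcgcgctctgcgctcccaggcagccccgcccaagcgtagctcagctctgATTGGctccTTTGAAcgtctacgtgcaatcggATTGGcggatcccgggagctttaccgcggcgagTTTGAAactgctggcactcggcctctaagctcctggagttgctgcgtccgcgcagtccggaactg
Kif11 (chr19:37376132-37376431, plus strand): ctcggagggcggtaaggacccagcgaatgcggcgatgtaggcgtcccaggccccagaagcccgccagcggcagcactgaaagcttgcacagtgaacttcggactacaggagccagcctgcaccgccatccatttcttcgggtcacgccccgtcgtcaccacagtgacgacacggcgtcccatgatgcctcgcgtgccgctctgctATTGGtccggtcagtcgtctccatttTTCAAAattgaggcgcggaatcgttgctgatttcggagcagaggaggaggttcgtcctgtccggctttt

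Hair keratin genes were searched on both strands for CTTTGAA, which resembles the site of the Wnt effector LEF1 and contains TTTGAA, and for the TATAAA of a TATA box. Of 32 genes 25 had a window. CTTTGAA stood in 44% of them against 5.27% of all windows, TATAAA in 68% against 14.2%, and both in 28% against 0.958%. TATAAA began 31 bases before the start in Krt34 and 47 bases before it in Krt33b.
Krt33b (chr11:100029819-100030118, minus strand): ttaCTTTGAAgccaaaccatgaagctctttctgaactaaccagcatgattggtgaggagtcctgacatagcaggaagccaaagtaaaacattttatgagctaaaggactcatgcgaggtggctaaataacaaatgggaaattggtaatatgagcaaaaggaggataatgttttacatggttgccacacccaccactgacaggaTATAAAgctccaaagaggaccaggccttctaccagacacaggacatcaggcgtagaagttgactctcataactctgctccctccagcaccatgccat
Krt34 (chr11:100041505-100041804, minus strand): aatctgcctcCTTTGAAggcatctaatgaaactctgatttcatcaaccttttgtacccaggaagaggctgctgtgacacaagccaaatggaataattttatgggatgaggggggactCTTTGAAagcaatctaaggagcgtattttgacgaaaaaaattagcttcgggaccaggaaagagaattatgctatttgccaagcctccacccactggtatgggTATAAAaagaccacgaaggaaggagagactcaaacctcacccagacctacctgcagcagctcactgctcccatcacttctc

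Wound-associated epidermal genes were searched on both strands for TGANTCA, the letters of an AP-1 site with any base in the middle, and for TATAAA. Of 24 genes 14 had a window. TGANTCA stood in 57.1% of them against 7.93% of all windows, TATAAA in 64.3% against 14.2%, and both in 50% against 1.67%. TATAAA began 29 bases before the start in Sprr2h and 30 bases before it in Sprr1b.
Sprr2h (chr3:92385435-92385734, plus strand): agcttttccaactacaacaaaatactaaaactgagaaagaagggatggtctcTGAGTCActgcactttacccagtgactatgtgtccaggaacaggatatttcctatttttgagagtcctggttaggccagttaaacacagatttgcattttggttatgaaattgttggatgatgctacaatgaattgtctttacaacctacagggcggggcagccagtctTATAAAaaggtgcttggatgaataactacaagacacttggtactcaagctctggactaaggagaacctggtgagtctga
Sprr1b (chr3:92438730-92439029, minus strand): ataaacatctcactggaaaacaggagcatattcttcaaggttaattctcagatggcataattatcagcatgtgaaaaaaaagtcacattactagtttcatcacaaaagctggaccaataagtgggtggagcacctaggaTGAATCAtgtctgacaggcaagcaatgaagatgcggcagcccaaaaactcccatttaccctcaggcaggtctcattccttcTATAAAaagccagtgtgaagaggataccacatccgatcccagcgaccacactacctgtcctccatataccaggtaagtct

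The 6 libraries held 6550011 to 10988772 counts, mitochondrial genes took 1.495 to 1.859% of the counts, and the E7 transgene had 0 counts in each of them. Levels are given as CPM, the usual depth-scaled count, over library sizes scaled by trimmed mean of M values (TMM), and changes as log2 fold changes, 28 dpg over 14 dpg, ± their standard error (SE). Of 16189 genes tested, 3661 (22.6%) passed an adjusted p of 0.05 in edgeR's quasi-likelihood test with Benjamini-Hochberg adjustment. Of these, 1360 rose (8.4% of those tested) and 2301 fell (14.2%), the shares against which the counts over gene lists are to be read, so that 37.1% of the calls were rises, against 52.2% (1842 rises and 1689 falls) with upper quartile scaling. Of the called genes, 420 rose and 594 fell by at least 2-fold. The levels of the 3 libraries of 1 day lay wholly above those of the other day for 6897 genes (42.6%), of which 2882 (17.8%) were higher and 4015 (24.8%) lower at 28 dpg. The median log2 fold change of the tested genes was -0.03. Because the grafts were sequenced in bulk, fewer cells of a type and less RNA per cell cannot be told apart in any of the results.

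**Figure D1:**
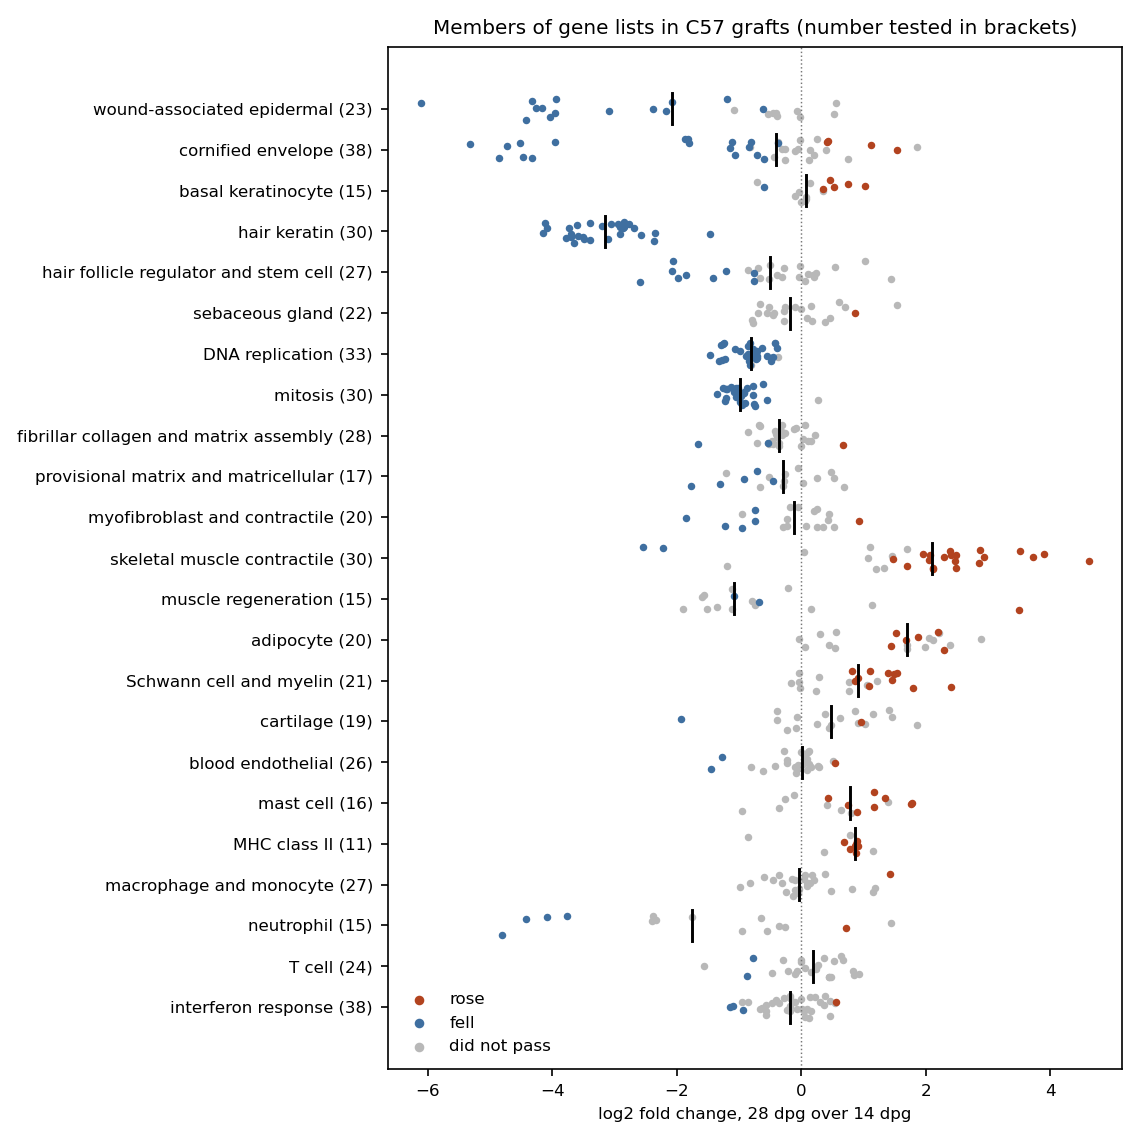
Log2 fold change, 28 dpg over 14 dpg, of each tested member of 23 gene lists in C57 grafts; each point is 1 gene, coloured by whether it rose, fell or did not pass an adjusted p of 0.05, and the vertical bar is the list's median. The hair keratin list (median -3.15), the wound-associated epidermal list (median -2.08) and the mitosis list (median -0.99) lie left of 0, and the skeletal muscle contractile (median 2.10) and adipocyte (median 1.70) lists lie right of it.

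Genes of wounded epidermis were far lower at 28 dpg than at 14 dpg. Of 23 tested wound-associated epidermal genes, 14 fell and 0 rose, with a median log2 fold change of -2.08 beside the -0.03 of all genes and the 14.2% of all genes that fell. Krt16, a keratin of wounded and hyperproliferative epidermis, had 83.5, 52.6 and 35.4 CPM at 28 dpg, against 1241, 619 and 967 CPM at 14 dpg. The 28 dpg libraries lay below the 14 dpg ones with no overlap, a 16.4-fold difference (log2 fold change -4.04 ± 0.32, adjusted p = 6.55e-06). Its partner Krt6a had 189, 218 and 150.4 CPM at 28 dpg, against 1225, 687 and 998 CPM at 14 dpg. The groups did not overlap (log2 fold change -2.39 ± 0.40, adjusted p = 0.00098), and the near-identical Krt6b, whose counts cannot be fully told apart from those of Krt6a, fell as well (log2 fold change -3.95 ± 0.52, adjusted p = 0.000208). Krt17 had 418, 607 and 418 CPM at 28 dpg, against 1196, 1282 and 817 CPM at 14 dpg. It fell by less (log2 fold change -1.19 ± 0.31, adjusted p = 0.0138), and the call was lost without 14 dpg library 2, 28 dpg library 1 or 28 dpg library 3 (adjusted p up to 0.0569).

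The small proline-rich proteins, which are cross-linked into the cornified envelope of stressed epidermis, moved with the wound keratins. Sprr1b, whose start window is printed above, had 18.4, 5.45 and 4.3 CPM at 28 dpg, against 199.8, 163 and 233 CPM at 14 dpg. Every 28 dpg library was below every 14 dpg library (log2 fold change -4.33 ± 0.44, adjusted p = 4.63e-05), and without 28 dpg library 1 the log2 fold change was -5.34. Sprr2h had 4.9, 1.96 and 1.8 CPM at 28 dpg, against 56.2, 42.3 and 47.0 CPM at 14 dpg, again without overlap (log2 fold change -3.96 ± 0.26, adjusted p = 1.07e-06), and its log2 fold change was -4.68 without 28 dpg library 1. Sprr2f was close to the limit of detection at 28 dpg, with 0.0891, 0 and 0 CPM at 28 dpg, against 4.0, 0.434 and 6.33 CPM at 14 dpg. It fell (log2 fold change -6.11 ± 1.74, adjusted p = 0.0219), but the 14 dpg libraries spread from 0.434 to 6.33 CPM and the call was lost without 14 dpg library 3, 28 dpg library 1, 28 dpg library 2 or 28 dpg library 3 (adjusted p up to 0.0809). Its log2 fold change was -5.43 without 14 dpg library 3 and -7.92 without 28 dpg library 1. Genes of the Sprr2 family are near copies of each other, so that reads could be shared among them.

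Inhibitors of cysteine proteases of the stefin A type were also far lower at 28 dpg. Cstdc5 had 19.7, 9.92 and 7.21 CPM at 28 dpg, against 424, 272 and 366 CPM at 14 dpg. The 3 libraries of 28 dpg held at most 19.7 CPM where those of 14 dpg held at least 272 CPM (log2 fold change -4.81 ± 0.39, adjusted p = 1.2e-05). Cstdc6 had 2.85, 0.978 and 1.67 CPM at 28 dpg, against 68.9, 42.6 and 57.7 CPM at 14 dpg, and the groups did not overlap (log2 fold change -4.84 ± 0.45, adjusted p = 2.47e-05). Csta3 had 0 counts in the 3 libraries at 28 dpg, against 4.88, 1.74 and 3.4 CPM at 14 dpg, and was at least 29.1-fold lower at 28 dpg when 3 counts over the group was taken as the floor. Its call (adjusted p = 0.0168) was lost without 28 dpg library 1 (adjusted p up to 0.0533). Stfa1, Stfa2 and Stfa3, near copies of each other, fell with log2 fold changes of -4.42, -4.08 and -3.77, and that of Stfa2 was -5.81 without 28 dpg library 1. These 3 and Cstdc5 were the 4 falling members of a neutrophil list of 15 tested genes, whose other member that passed, Il1r2, a decoy receptor for interleukin-1, rose (log2 fold change 0.72 ± 0.21, adjusted p = 0.0217), a call lost without 14 dpg library 1, 14 dpg library 2, 28 dpg library 2 or 28 dpg library 3 (adjusted p up to 0.0951). Spink7, a serine protease inhibitor of stratified epithelia, had 1.51, 0.14 and 0.139 CPM at 28 dpg, against 16.5, 30.1 and 27.6 CPM at 14 dpg, and fell without overlap (log2 fold change -5.06 ± 0.62, adjusted p = 0.000142), with a log2 fold change of -7.32 without 28 dpg library 1. The chemokine receptor Cxcr2 and the growth factor receptor Csf3r, both of neutrophils, did not pass. Cxcr2 had 9.0, 3.63 and 6.66 CPM at 28 dpg, against 13.9, 5.79 and 11.0 CPM at 14 dpg (log2 fold change -0.65 ± 0.34, adjusted p = 0.196). Csf3r had 18.7, 15.0 and 18.9 CPM at 28 dpg, against 24.5, 17.8 and 34.1 CPM at 14 dpg, with overlapping groups (log2 fold change -0.54 ± 0.24, adjusted p = 0.125). It passed as a fall without 14 dpg library 2.

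Alarmins and antimicrobial peptides shifted less uniformly. Of 17 tested genes, 5 fell and 1 rose (median -0.77), and without 28 dpg library 2 the numbers were 3 and 0. S100a7a, the psoriasin-like protein, fell (log2 fold change -2.27 ± 0.40, adjusted p = 0.00117), as did Defb14, a beta-defensin induced in injured epithelium (log2 fold change -2.71 ± 0.53, adjusted p = 0.00219). S100a8, a calcium-binding alarmin of keratinocytes and neutrophils, had 5.7, 2.94 and 2.78 CPM at 28 dpg, against 32.7, 5.5 and 24.1 CPM at 14 dpg. Its 14 dpg library 2 overlapped the 28 dpg libraries, and it did not pass (log2 fold change -2.39 ± 0.87, adjusted p = 0.0647). Its partner S100a9 did not pass either (log2 fold change -2.33 ± 0.94, adjusted p = 0.0909), and its log2 fold change was -3.68 without 28 dpg library 1. Both passed with DESeq2, and S100a8 passed without 14 dpg library 2.

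**Figure D2:**
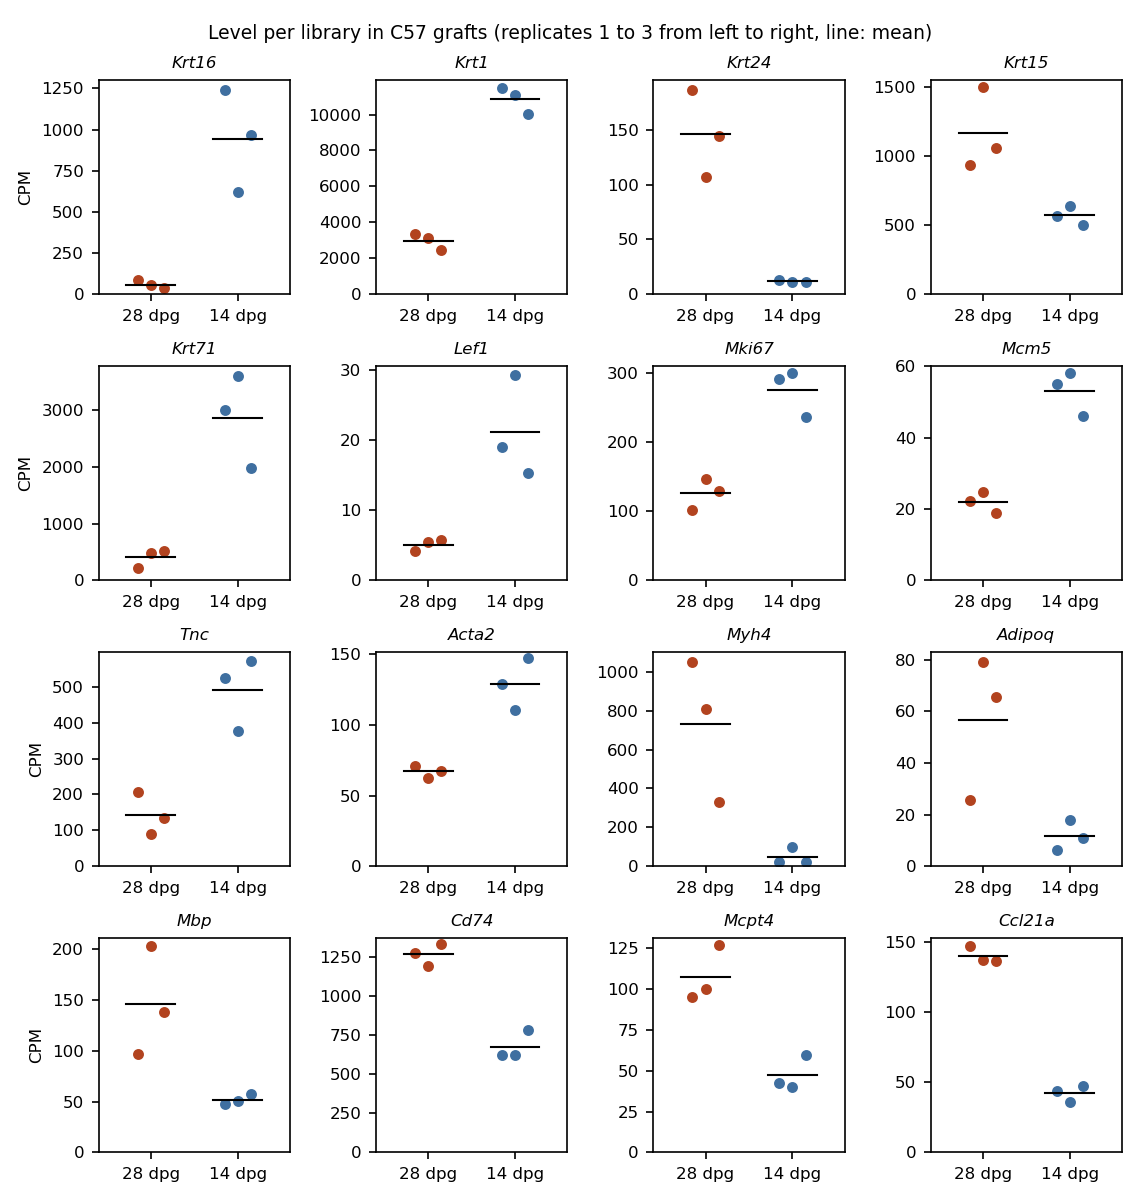
Level in CPM (linear axes from 0) of 16 genes in each C57 graft library, with 28 dpg left of 14 dpg, replicates 1 to 3 from left to right and a line at the mean of 3. Krt16, Krt1, Krt71, Lef1, Mki67, Mcm5, Tnc and Acta2 are lower, and Krt24, Krt15, Myh4, Adipoq, Mbp, Cd74, Mcpt4 and Ccl21a higher, in each 28 dpg library than in each 14 dpg library.

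Differentiation genes fell more often than they rose. Of 38 tested cornified envelope genes, 18 fell (47.4%) and 4 rose (10.5%), beside 14.2% and 8.4% of all genes (median -0.40). Krt1, the keratin that marks entry into differentiation, had 3342, 3112 and 2438 CPM at 28 dpg, against 11470, 11090 and 10010 CPM at 14 dpg, with a gap between the groups (log2 fold change -1.87 ± 0.27, adjusted p = 0.000284). Its usual partner Krt10 had 14870, 12470 and 13200 CPM at 28 dpg, against 17580, 14630 and 17830 CPM at 14 dpg. Those ranges overlapped and Krt10 did not pass (log2 fold change -0.30 ± 0.29, adjusted p = 0.491). Flg, which encodes profilaggrin of the granular layer, had 987, 637 and 578 CPM at 28 dpg, against 2621, 2840 and 2316 CPM at 14 dpg, and fell without overlap (log2 fold change -1.82 ± 0.26, adjusted p = 0.000277). The related gene Flg2 moved the other way, with 1094, 1073 and 1079 CPM at 28 dpg, against 576, 424 and 496 CPM at 14 dpg, again without overlap (log2 fold change 1.12 ± 0.19, adjusted p = 0.00086). Loricrin (Lor), a main envelope protein, had 2939, 2704 and 2648 CPM at 28 dpg, against 2296, 2194 and 2492 CPM at 14 dpg and did not pass (log2 fold change 0.25 ± 0.23, adjusted p = 0.473). Repetin (Rptn), a further fused S100 protein of the envelope, had 35.3, 28.8 and 18.9 CPM at 28 dpg, against 282, 731 and 663 CPM at 14 dpg, and fell (log2 fold change -4.33 ± 0.51, adjusted p = 0.000104).

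Genes of the late cornified envelope cluster differed in the size of their change. The 6 tested Lce3 genes, a subgroup known in human skin for its induction by injury, fell by 3.95 to 5.32 on the log2 scale. Of these, Lce3a was close to the limit of detection at 28 dpg. It averaged 0.106 CPM at 28 dpg when scaled over all 24 libraries. The floor (3 counts over the group) was 0.117 CPM on the separate scale of the 18 graft libraries. At that level a few counts decide its fold. Lce3c had 3.74, 1.96 and 1.8 CPM at 28 dpg, against 37.5, 37.8 and 47.6 CPM at 14 dpg (log2 fold change -3.95 ± 0.34, adjusted p = 1.2e-05). Of 13 tested Lce1 genes, 5 fell by 0.83 to 1.14 on the log2 scale, 7 did not pass and Lce1m rose, with 302, 392 and 309 CPM at 28 dpg, against 132, 97.4 and 114 CPM at 14 dpg (log2 fold change 1.55 ± 0.25, adjusted p = 0.000736). Neither pair of groups overlapped for Lce3c or Lce1m. Reads of these near-identical genes could be shared between members.

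Krt24 and the basement membrane adhesion genes were higher at 28 dpg. Krt24, a keratin of differentiated and resting epidermis, had 187, 107 and 145 CPM at 28 dpg, against 13.3, 10.9 and 10.9 CPM at 14 dpg, a 12.5-fold rise with no overlap (log2 fold change 3.65 ± 0.46, adjusted p = 0.000173). Scgb1a1, a secretoglobin known from airway epithelium, was also among the 12 largest rises, from low levels, with 2.94, 5.87 and 4.44 CPM at 28 dpg, against 0.375, 0.145 and 0 CPM at 14 dpg (log2 fold change 4.55 ± 0.81, adjusted p = 0.00111). Its log2 fold change was 5.77 without 14 dpg library 1 and 3.95 without 14 dpg library 3. Of 15 tested basal keratinocyte genes, 5 rose and 1 fell (median 0.09). Krt15, a keratin of basal and follicle bulge cells, had 938, 1501 and 1061 CPM at 28 dpg, against 567, 638 and 504 CPM at 14 dpg, and each 28 dpg library exceeded each 14 dpg library (log2 fold change 1.03 ± 0.25, adjusted p = 0.00849). Col17a1, a collagen of the hemidesmosome, had 1322, 1360 and 1189 CPM at 28 dpg, against 860, 677 and 765 CPM at 14 dpg, without overlap (log2 fold change 0.75 ± 0.15, adjusted p = 0.00212). Its neighbours in the hemidesmosome, Itgb4 and Dst, rose by 0.53 and 0.46 on the log2 scale. Krt5, the main basal keratin, had 4698, 4810 and 4407 CPM at 28 dpg, against 5405, 4152 and 4449 CPM at 14 dpg and did not pass (log2 fold change -0.01 ± 0.14, adjusted p = 0.974). Its partner Krt14 had 3701, 3061 and 3114 CPM at 28 dpg, against 6147, 3946 and 4916 CPM at 14 dpg. It passed as a fall (log2 fold change -0.60 ± 0.19, adjusted p = 0.0326), but the call was lost without 14 dpg library 1, 14 dpg library 3, 28 dpg library 2 or 28 dpg library 3 (adjusted p up to 0.159), and with upper quartile scaling.

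Among 20 tested genes of barrier lipid synthesis, 3 rose and 3 fell (15% each, median -0.07), beside 8.4% and 14.2% of all genes. Degs2, a desaturase and hydroxylase of ceramide synthesis, had 11.8, 7.97 and 8.74 CPM at 28 dpg, against 39.03, 33.4 and 38.1 CPM at 14 dpg, and fell (log2 fold change -1.94 ± 0.21, adjusted p = 4.63e-05). Elovl7, a fatty acid elongase, fell too (log2 fold change -1.07 ± 0.17, adjusted p = 0.000667), and the elongase Elovl1, which makes very long chain fatty acids, rose (log2 fold change 0.52 ± 0.09, adjusted p = 0.00124). Each of these 3 separated the days without overlap. In the sebaceous gland list of 22 tested genes, 1 rose (4.55%) and 0 fell (median -0.18), beside 8.4% and 14.2% of all genes. The gene that passed was Dgat2, which completes triglyceride synthesis. It had 386, 364 and 378 CPM at 28 dpg, against 214, 193 and 213 CPM at 14 dpg, and rose without overlap (log2 fold change 0.86 ± 0.16, adjusted p = 0.00178).

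Hair shaft and inner root sheath genes were strongly lower at 28 dpg. Each of the 30 tested genes of the hair keratin list fell, by 1.47 to 4.15 on the log2 scale (median -3.15). Krt71, an inner root sheath keratin, had 221, 474 and 517 CPM at 28 dpg, against 3013, 3610 and 1979 CPM at 14 dpg. The 28 dpg libraries were all below the lowest 14 dpg library (log2 fold change -2.83 ± 0.61, adjusted p = 0.00496). Trichohyalin (Tchh), which hardens the inner root sheath, had 382, 656 and 773 CPM at 28 dpg, against 4882, 5541 and 2712 CPM at 14 dpg, in the same order (log2 fold change -2.86 ± 0.61, adjusted p = 0.00468). Krt34, a hair cortex keratin whose start window is printed above, had 20.0, 32.0 and 28.02 CPM at 28 dpg, against 473, 362 and 260.2 CPM at 14 dpg (log2 fold change -3.78 ± 0.63, adjusted p = 0.00101). Summed over the list, hair keratin genes reached 1311, 2533 and 2762 CPM at 28 dpg, against 20230, 21307 and 12385 CPM at 14 dpg. Outside the list, the keratin-associated genes Krtap16-3, Krtap19-1, Krtap19-2 and Krtap19-4, named among the 12 largest falls of the comparison, had log2 fold changes of -5.01, -5.54, -5.04 and -5.18. Counts of single keratin-associated genes were uncertain, since the family is made of near copies.

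Regulators of the growing follicle were lower with the hair keratins, and the stem cell markers Lgr5 and Cd34 did not pass. Of 27 tested genes, 9 fell and 0 rose (median -0.51), and 5 fell without 14 dpg library 2, 28 dpg library 1 or 28 dpg library 3. Lef1, a transcription factor of hair matrix cells, had 4.1, 5.45 and 5.69 CPM at 28 dpg, against 19.0, 29.3 and 15.3 CPM at 14 dpg, with no overlap (log2 fold change -2.07 ± 0.45, adjusted p = 0.0045). Hoxc13, which controls hair keratin genes, had 11.1, 19.9 and 18.2 CPM at 28 dpg, against 57.8, 80.9 and 52.3 CPM at 14 dpg, also without overlap (log2 fold change -1.97 ± 0.38, adjusted p = 0.00213). Foxn1 (the nude gene), Dlx3 and Msx2, further regulators of the hair shaft, fell with log2 fold changes of -1.41, -1.84 and -2.06. Shh, the hedgehog ligand of the growing bulb, was low throughout, with 0.891, 1.68 and 0.971 CPM at 28 dpg, against 4.88, 14.2 and 2.35 CPM at 14 dpg. It fell (log2 fold change -2.59 ± 0.72, adjusted p = 0.0174), and the call was lost without 14 dpg library 2, 28 dpg library 1 or 28 dpg library 3 (adjusted p up to 0.117), and with a fit of the compared groups alone. Without 14 dpg library 2 its log2 fold change was -1.63. Lgr5, a marker of follicle stem and progenitor cells, had 23.9, 41.4 and 34.8 CPM at 28 dpg, against 58.2, 59.8 and 42.9 CPM at 14 dpg. Its groups did not overlap, but it did not pass (log2 fold change -0.69 ± 0.33, adjusted p = 0.156). Cd34, a bulge marker that endothelial cells and fibroblasts also express, did not pass (log2 fold change 0.55 ± 0.21, adjusted p = 0.0719). Cd34 passed as a rise with upper quartile scaling, with DESeq2 and with a fit of the compared groups alone. In the melanocyte list of 12 tested genes, 2 fell and 1 rose, Sox10, which is also a Schwann cell gene (median -0.91). That count of 3 became 0 without 28 dpg library 3 or with the compared groups alone, and 1 without 14 dpg library 1, 14 dpg library 2 or 28 dpg library 1. It was 2 without 28 dpg library 2. Trpm1, a pigment cell channel, had 4.72, 11.0 and 10.3 CPM at 28 dpg, against 19.8, 40.5 and 10.8 CPM at 14 dpg and overlapped by 14 dpg library 3 (log2 fold change -1.47 ± 0.47, adjusted p = 0.0374). Its call was lost without 14 dpg library 1, 14 dpg library 2, 28 dpg library 1, 28 dpg library 2 or 28 dpg library 3 (adjusted p up to 0.225), and with no low-count filter or a fit of the compared groups alone, and without 14 dpg library 2 its log2 fold change was -0.84.

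Most of the cell cycle genes tested were lower at 28 dpg. Of 33 tested DNA replication genes 30 fell (median -0.81), and of 30 tested mitosis genes 29 fell (median -0.99). The lists gave 0 rises. The mitosis count was 29 with any of the 6 libraries left out, and the replication count ranged from 22 to 27. Mki67, the common marker of cycling cells, had 102, 146 and 129 CPM at 28 dpg, against 290.2, 299 and 236 CPM at 14 dpg, and the groups did not overlap (log2 fold change -1.13 ± 0.16, adjusted p = 0.000253). Cdk1, the kinase that starts mitosis, had 15.8, 19.3 and 17.8 CPM at 28 dpg, against 40.3, 38.5 and 41.1 CPM at 14 dpg, without overlap (log2 fold change -1.19 ± 0.13, adjusted p = 4.6e-05). Kif11, a spindle motor, had 20.6, 23.8 and 22.1 CPM at 28 dpg, against 54.6, 53.1 and 45.3 CPM at 14 dpg, without overlap (log2 fold change -1.21 ± 0.13, adjusted p = 4.8e-05). Mcm5, a subunit of the replicative helicase, had 22.2, 24.6 and 18.7 CPM at 28 dpg, against 55.1, 58.1 and 46.1 CPM at 14 dpg (log2 fold change -1.28 ± 0.16, adjusted p = 0.000104), and Mcm6 fell by less (log2 fold change -0.86 ± 0.14, adjusted p = 0.000686). The exception in the mitosis list was Ttk, a spindle checkpoint kinase, with 21.0, 26.6 and 25.9 CPM at 28 dpg, against 23.5, 18.0 and 18.9 CPM at 14 dpg (log2 fold change 0.28 ± 0.24, adjusted p = 0.448). Pcna, the sliding clamp, fell (log2 fold change -0.48 ± 0.14, adjusted p = 0.0218), but the call was lost without 14 dpg library 1, 14 dpg library 2, 28 dpg library 2 or 28 dpg library 3 (adjusted p up to 0.0766).

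In the dermis a few matrix genes passed and the main collagens did not. Of 28 tested fibrillar collagen and assembly genes, 2 fell (7.14%) and 1 rose (median -0.36), beside 14.2% of all genes that fell. Col1a1, the main dermal collagen chain, had 11610, 6184 and 10180 CPM at 28 dpg, against 11380, 9832 and 13430 CPM at 14 dpg. The groups overlapped (log2 fold change -0.31 ± 0.25, adjusted p = 0.404), and 28 dpg library 2 was the lowest of the 6. Col3a1, a collagen abundant in young scar, had 14270, 7596 and 14220 CPM at 28 dpg, against 15370, 12270 and 18720 CPM at 14 dpg with the same library lowest (log2 fold change -0.36 ± 0.29, adjusted p = 0.415). Col12a1, a fibril-associated collagen, had 222, 125 and 213 CPM at 28 dpg, against 684, 489.7 and 587 CPM at 14 dpg, and fell without overlap (log2 fold change -1.65 ± 0.35, adjusted p = 0.0039). Adamts14, which trims procollagen, rose (log2 fold change 0.67 ± 0.12, adjusted p = 0.00139).

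Provisional matrix genes fell in 5 of 17 tested cases (29.4%, median -0.28), beside 14.2% of all genes. Tnc, which encodes tenascin C of early wound matrix, had 207, 89.7 and 134 CPM at 28 dpg, against 523, 377 and 572 CPM at 14 dpg, with no overlap (log2 fold change -1.77 ± 0.25, adjusted p = 0.00035). Ccn4, a matricellular signalling protein, had 23.4, 15.1 and 30.1 CPM at 28 dpg, against 54.3, 47.6 and 68.4 CPM at 14 dpg, with no overlap (log2 fold change -1.31 ± 0.26, adjusted p = 0.00263). Postn, which encodes periostin, had 2238, 1519 and 2854 CPM at 28 dpg, against 3199, 3302 and 4260 CPM at 14 dpg. It passed as a fall (log2 fold change -0.70 ± 0.23, adjusted p = 0.0375), and the call was lost without 14 dpg library 1, 14 dpg library 2, 14 dpg library 3, 28 dpg library 1 or 28 dpg library 2 (adjusted p up to 0.15), and with upper quartile scaling, no low-count filter or a fit of the compared groups alone. Fibronectin (Fn1) had 1819, 859 and 1604 CPM at 28 dpg, against 1568, 1021 and 2601 CPM at 14 dpg and did not pass (log2 fold change -0.28 ± 0.34, adjusted p = 0.613). The list's count of falls was 2 without 14 dpg library 1, 14 dpg library 3 or 28 dpg library 2 and 3 without 28 dpg library 3.

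Of 20 tested myofibroblast genes, 5 fell (25%) and 1 rose (median -0.11), beside 14.2% of all genes that fell, and the other 14 did not pass. Acta2, the smooth muscle actin that myofibroblasts, pericytes and vessel walls express, had 71.0, 62.8 and 67.4 CPM at 28 dpg, against 129, 111 and 147 CPM at 14 dpg. The days did not overlap (log2 fold change -0.94 ± 0.27, adjusted p = 0.0217), and the call was lost without 14 dpg library 1, 14 dpg library 3, 28 dpg library 2 or 28 dpg library 3 (adjusted p up to 0.0716). Lrrc15, a membrane protein of activated fibroblasts, had 99.6, 107 and 154 CPM at 28 dpg, against 496, 470.1 and 327 CPM at 14 dpg, without overlap (log2 fold change -1.84 ± 0.39, adjusted p = 0.00448). The collagen receptor subunit Itga11 fell (log2 fold change -0.75 ± 0.16, adjusted p = 0.00429). The gene of the list that rose was Tpm2, a tropomyosin that skeletal muscle also expresses, and it had 355, 427 and 199.6 CPM at 28 dpg, against 158, 216 and 142 CPM at 14 dpg (log2 fold change 0.93 ± 0.22, adjusted p = 0.00715), a call lost with a fit of the compared groups alone. Among 24 tested matrix proteases and inhibitors, 3 rose and 3 fell (12.5% each, median -0.18), near the 8.4% and 14.2% of all genes. The counts were 1 and 2 without 14 dpg library 2 and 2 and 1 without 28 dpg library 3. Adam12, a metalloprotease of activated mesenchyme, fell (log2 fold change -1.32 ± 0.33, adjusted p = 0.0106). Timp4, a metalloprotease inhibitor, rose (log2 fold change 1.82 ± 0.44, adjusted p = 0.00817), a call that was lost without 28 dpg library 1 (adjusted p up to 0.0642). Mmp9, a gelatinase, had 22.6, 29.1 and 26.1 CPM at 28 dpg, against 67.3, 16.8 and 129 CPM at 14 dpg, and 14 dpg library 2 lay below the 28 dpg libraries (log2 fold change -1.46 ± 0.81, adjusted p = 0.217).

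Genes of fast skeletal muscle fibres were higher at 28 dpg. Of 30 tested contractile genes, 20 rose and 2 fell (median 2.10), beside 8.4% of all genes that rose. Myh4, the fast myosin heavy chain of type IIb fibres, had 1049, 806 and 333 CPM at 28 dpg, against 22.5, 102 and 23.1 CPM at 14 dpg. The groups did not overlap (log2 fold change 3.91 ± 1.05, adjusted p = 0.0164), and the call was lost without 14 dpg library 1 or 14 dpg library 3 (adjusted p up to 0.069). Mybpc2, the fast myosin binding protein C, had 106, 109.6 and 44.8 CPM at 28 dpg, against 2.63, 6.52 and 1.76 CPM at 14 dpg, the largest rise by the naming rule, without overlap (log2 fold change 4.62 ± 0.93, adjusted p = 0.00317). Pvalb, the calcium buffer parvalbumin of fast fibres, had 199.7, 227 and 113 CPM at 28 dpg, against 8.51, 27.4 and 5.98 CPM at 14 dpg (log2 fold change 3.72 ± 0.71, adjusted p = 0.00224). Ckm, the muscle creatine kinase, had 276, 314 and 117 CPM at 28 dpg, against 11.5, 41.0 and 10.6 CPM at 14 dpg (log2 fold change 3.51 ± 0.79, adjusted p = 0.00632). Of the 12 largest rises by the naming rule, Rpl3l, Apobec2, Myoz3 and Mstn are further genes known from muscle and rose by 4.19, 3.86, 3.69 and 3.49 on the log2 scale. Pvalb and Ckm separated the days, and 14 dpg library 2 was the highest 14 dpg library for Myh4, Mybpc2, Pvalb and Ckm. Without that library the log2 fold changes were 5.00 for Myh4, 5.30 for Mybpc2, 4.63 for Pvalb, 4.42 for Ckm, 6.28 for Rpl3l and 4.51 for Apobec2. That of Rpl3l was 3.56 without 14 dpg library 3.

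The 2 contractile genes that fell belong to slow and developing fibres. Tnnc1, the slow and cardiac troponin C, had 1.07, 0.839 and 1.39 CPM at 28 dpg, against 5.25, 9.85 and 4.34 CPM at 14 dpg, with no overlap (log2 fold change -2.53 ± 0.71, adjusted p = 0.0185). Tnni1, the slow troponin I, had 1.78, 3.77 and 4.72 CPM at 28 dpg, against 11.3, 25.3 and 9.85 CPM at 14 dpg, with no overlap (log2 fold change -2.21 ± 0.57, adjusted p = 0.0125). The Tnnc1 call was lost without 14 dpg library 2, 28 dpg library 1 or 28 dpg library 2 (adjusted p up to 0.0764), and the Tnni1 call without 14 dpg library 2 or 28 dpg library 1 (adjusted p up to 0.0653). Of 15 tested muscle regeneration genes, 1 rose and 2 fell (median -1.08). Embryonic myosin (Myh3) had 2.41, 8.25 and 4.16 CPM at 28 dpg, against 8.88, 32.3 and 12.7 CPM at 14 dpg, and did not pass (log2 fold change -1.89 ± 0.68, adjusted p = 0.0606). Myh3 passed as a fall with DESeq2 and without 14 dpg library 1. The differentiation factor Myog had 2.14, 5.45 and 3.33 CPM at 28 dpg, against 4.5, 15.5 and 3.4 CPM at 14 dpg and did not pass (log2 fold change -1.11 ± 0.67, adjusted p = 0.258). Mstn, which encodes the growth inhibitor myostatin made by mature fibres, had 12.1, 15.2 and 3.61 CPM at 28 dpg, against 0, 1.74 and 1.06 CPM at 14 dpg, and rose without overlap (log2 fold change 3.49 ± 0.84, adjusted p = 0.00824). Its log2 fold change was 2.90 without 14 dpg library 1 and 4.22 without 14 dpg library 2. The 2 regeneration genes that fell were the adhesion molecule Ncam1 (log2 fold change -0.67 ± 0.19, adjusted p = 0.0176) and the embryonic troponin Tnnt2 (log2 fold change -1.08 ± 0.35, adjusted p = 0.0382). The Ncam1 call was lost without 14 dpg library 2, 28 dpg library 2 or 28 dpg library 3 (adjusted p up to 0.104), and the Tnnt2 call without 14 dpg library 1, 14 dpg library 2, 28 dpg library 1 or 28 dpg library 3 (adjusted p up to 0.204), and with upper quartile scaling, no low-count filter or a fit of the compared groups alone.

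Muscle content varied between libraries of a day. The contractile genes summed to 6454, 8063 and 3767 CPM at 28 dpg, against 786, 2338 and 713 CPM at 14 dpg. The 28 dpg libraries exceeded the 14 dpg ones, and 14 dpg library 2 held more than 14 dpg libraries 1 and 3 together. Without 14 dpg library 1, the contractile count fell to 7 rises and 2 falls, and it was 9 and 2 without 14 dpg library 3 and 11 and 1 without 28 dpg library 2. Genes of trunk position, whose Hox clusters are read in body skin and the muscle beneath it, were also summed. They reached 115, 145 and 92.7 CPM at 28 dpg, against 88.1, 133 and 66.2 CPM at 14 dpg. The summed levels overlapped between days. Of 22 tested genes of the list, 2 rose (9.09%), Hoxa4 and Hoxd4, near the 8.4% of all genes. The Hoxa4 call was lost without 14 dpg library 1, 14 dpg library 3, 28 dpg library 1 or 28 dpg library 2 (adjusted p up to 0.0769), and the Hoxd4 call without 14 dpg library 1 or 28 dpg library 1 (adjusted p up to 0.0664). Hoxc8 had 14.1, 14.1 and 10.4 CPM at 28 dpg, against 10.4, 15.8 and 7.62 CPM at 14 dpg (log2 fold change 0.21 ± 0.45, adjusted p = 0.793). In the 3 libraries of ungrafted ear skin, which were run on another flow cell, the list was uneven. There 8 of the 22 genes, Hoxc8 among them, had 0 counts. Hoxc6 and Hoxb5 had 1 count each, Hoxa7 5, Hoxb9 6, Hoxa5 and Hoxc5 7 each, Hoxb4 14 and Hoxc4 16. Hoxd3 had 55 counts, Hoxd10 68, and Hoxd8 and Hoxd9 375 each. The genes that rose, Hoxa4 and Hoxd4, had 50 and 174 counts in ear skin. On the scale over all 24 libraries, Hoxd8 averaged 11.5 CPM at 28 dpg, 9.03 CPM at 14 dpg and 9.26 CPM in ear skin. On that same scale, ear skin held muscle RNA as well. Myh4 averaged 732 CPM at 28 dpg, 49.6 CPM at 14 dpg and 1165 CPM in ear skin. In that order, Pvalb averaged 181, 14.1 and 228 CPM, Ckm 237, 21.2 and 427 CPM, and Mybpc2 87.1, 3.67 and 57.3 CPM. The ear mean lay above the 14 dpg mean for each of these genes, and above the 28 dpg mean for all but Mybpc2. The share of host tissue under the graft in each library was not tested.

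**Figure D3:**
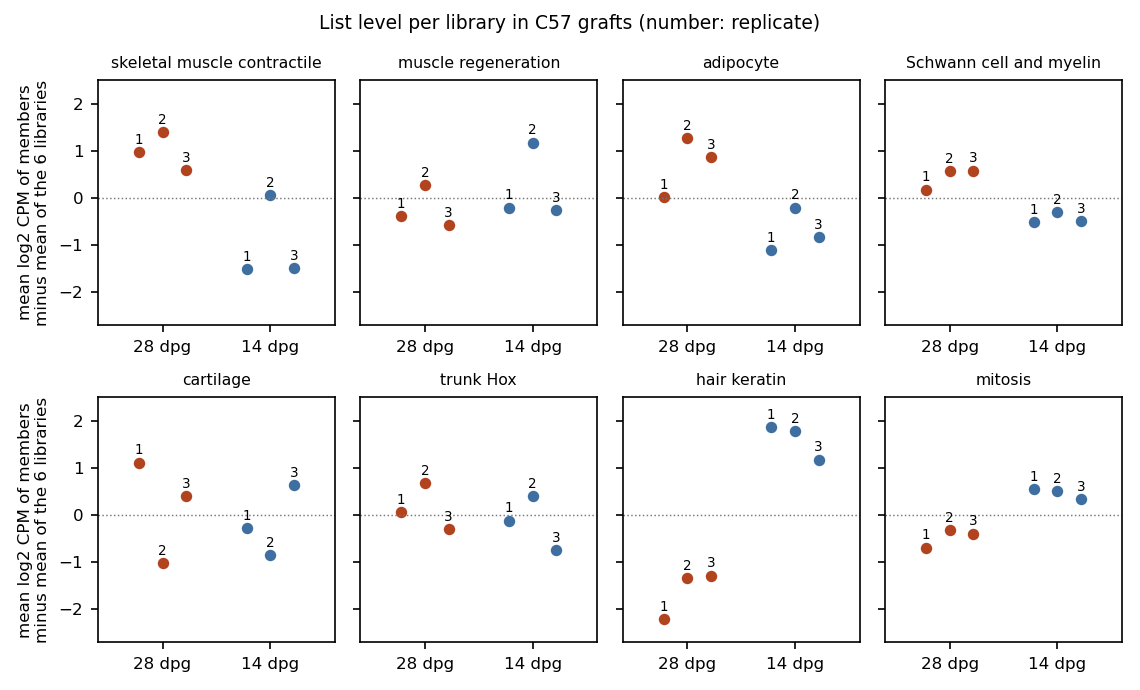
Mean over list members of log2 CPM (pseudocount 2), centred on the mean of the 6 C57 graft libraries, for 8 gene lists with 28 dpg left of 14 dpg and the replicate number above each point. Skeletal muscle, adipocyte and Schwann cell lists are higher and hair keratin and mitosis lists lower in each 28 dpg library, while the muscle regeneration, cartilage and trunk Hox lists overlap between days.

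Fat and nerve genes were higher at 28 dpg. Of 20 tested adipocyte genes, 6 rose and 0 fell (median 1.70), and 14 of the 20 were higher in each 28 dpg library than in each 14 dpg library, beside 17.8% of all genes. Adipoq, which encodes the fat cell hormone adiponectin, had 25.7, 79.2 and 65.5 CPM at 28 dpg, against 6.26, 17.8 and 10.8 CPM at 14 dpg. The groups did not overlap (log2 fold change 2.29 ± 0.73, adjusted p = 0.0371), and the call was lost without 14 dpg library 1, 14 dpg library 2, 14 dpg library 3, 28 dpg library 2 or 28 dpg library 3 (adjusted p up to 0.131), and with no low-count filter or a fit of the compared groups alone. Slc2a4, the insulin-regulated glucose transporter of fat and muscle, had 19.2, 21.5 and 16.5 CPM at 28 dpg, against 5.25, 9.41 and 6.45 CPM at 14 dpg, without overlap (log2 fold change 1.44 ± 0.30, adjusted p = 0.00291). The lipid droplet protein Plin1 had 11.9, 42.9 and 30.8 CPM at 28 dpg, against 3.88, 8.98 and 7.62 CPM at 14 dpg, without overlap, and did not pass (log2 fold change 2.05 ± 0.70, adjusted p = 0.0504). Plin1 passed as a rise with RLE or upper quartile scaling, with DESeq2 and without 28 dpg library 1. The adipocyte count was 13 without 28 dpg library 1, the lowest of the 28 dpg libraries for Adipoq and Plin1, 3 without 14 dpg library 2, and 2 without any of the other 4 libraries.

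Of 21 tested Schwann cell and myelin genes, 11 rose and 0 fell (median 0.91). Mbp, the myelin basic protein, had 97.4, 203 and 138 CPM at 28 dpg, against 47.9, 50.5 and 57.1 CPM at 14 dpg, with each 28 dpg library above each 14 dpg library (log2 fold change 1.49 ± 0.20, adjusted p = 0.000175). Pmp22, a compact myelin protein, had 199, 293 and 260.4 CPM at 28 dpg, against 106, 102 and 146 CPM at 14 dpg, in the same order (log2 fold change 1.09 ± 0.21, adjusted p = 0.0021). Ncmap and Prx, further genes of peripheral myelin, rose by 1.8 and 1.46 on the log2 scale. Sox10, the lineage factor of Schwann cells and melanocytes, rose by less (log2 fold change 0.91 ± 0.30, adjusted p = 0.0409), and its call was lost without 14 dpg library 1, 14 dpg library 3, 28 dpg library 2 or 28 dpg library 3 (adjusted p up to 0.143), and with a fit of the compared groups alone. The count of rises was 7 without 14 dpg library 1 or 28 dpg library 3.

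Few blood vessel genes passed. Of 26 tested, 1 rose and 2 fell (median 0.01), and the count was 0 without 28 dpg library 1 or 2 and 1 without 14 dpg library 3 or 28 dpg library 3. Pecam1, an adhesion molecule of endothelial cells, had 126, 119 and 115 CPM at 28 dpg, against 115, 114 and 137 CPM at 14 dpg (log2 fold change -0.02 ± 0.19, adjusted p = 0.948). Apln, a ligand of sprouting tip cells, had 8.29, 8.11 and 7.21 CPM at 28 dpg, against 14.9, 14.2 and 28.2 CPM at 14 dpg. It fell without overlap (log2 fold change -1.28 ± 0.38, adjusted p = 0.0251), and the call was lost without 14 dpg library 3, 28 dpg library 1, 28 dpg library 2 or 28 dpg library 3 (adjusted p up to 0.128). Ccl21a, the lymphatic chemokine that guides dendritic and T cells, had 147, 137 and 137 CPM at 28 dpg, against 44.0, 36.3 and 47.6 CPM at 14 dpg, without overlap (log2 fold change 1.72 ± 0.30, adjusted p = 0.0012), and is a member of a group of near-identical copies. Cartilage genes, part of the ear, followed neither day. Col2a1, the cartilage collagen, had 284.9, 50.9 and 182 CPM at 28 dpg, against 118, 57.3 and 258 CPM at 14 dpg (log2 fold change 0.26 ± 1.09, adjusted p = 0.900), and was lowest in library 2 of each day. Of 19 tested cartilage genes, the transcription factor Sox6, also active in other tissues, rose (log2 fold change 0.96 ± 0.15, adjusted p = 0.000487). Prg4, the joint lubricant lubricin, fell (log2 fold change -1.93 ± 0.63, adjusted p = 0.0414), a call lost without 14 dpg library 1, 14 dpg library 3, 28 dpg library 2 or 28 dpg library 3 (adjusted p up to 0.236), and with no low-count filter or a fit of the compared groups alone. Without 14 dpg library 3 its log2 fold change was -1.07.

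Antigen presentation genes of class II were higher at 28 dpg. Of 11 tested genes, 7 rose and 0 fell (median 0.86), against 4 rises without 14 dpg library 1. Cd74, the invariant chain, had 1275, 1193 and 1335 CPM at 28 dpg, against 622, 624 and 783 CPM at 14 dpg, and the groups did not overlap (log2 fold change 0.91 ± 0.22, adjusted p = 0.00923). H2-Ab1 and H2-Eb1, beta chains of class II, rose by 0.86 and 0.89 on the log2 scale. H2-Aa, an alpha chain, had 515, 481 and 599 CPM at 28 dpg, against 269.5, 302 and 351 CPM at 14 dpg, with no overlap (log2 fold change 0.79 ± 0.20, adjusted p = 0.0106), and its call was lost without 14 dpg library 1 (adjusted p up to 0.0515). Ciita, the class II transactivator, had 31.6, 25.4 and 32.9 CPM at 28 dpg, against 24.9, 19.8 and 24.9 CPM at 14 dpg and did not pass (log2 fold change 0.37 ± 0.23, adjusted p = 0.286).

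Few dendritic and Langerhans cell genes passed. Of 20 tested, 2 rose and 2 fell (10% each, median 0.06), near the 8.4% and 14.2% of all genes, and 2 passed without 14 dpg library 2. Cd209a, a lectin of dermal dendritic cells, had 18.5, 17.6 and 18.0 CPM at 28 dpg, against 10.6, 8.25 and 8.45 CPM at 14 dpg, and rose without overlap (log2 fold change 0.99 ± 0.18, adjusted p = 0.0013). Cd207, the Langerhans cell lectin langerin, rose (log2 fold change 0.82 ± 0.24, adjusted p = 0.0213), but the call was lost without 14 dpg library 2, 14 dpg library 3 or 28 dpg library 1 (adjusted p up to 0.0899). Fscn1, the actin bundler fascin of mature dendritic cells, which other cells also express, had 66.9, 51.9 and 53.3 CPM at 28 dpg, against 103, 99.3 and 125 CPM at 14 dpg, and fell without overlap (log2 fold change -0.92 ± 0.19, adjusted p = 0.00279). The homing receptor Ccr7 fell (log2 fold change -1.29 ± 0.37, adjusted p = 0.0205), a call lost without 14 dpg library 2, 14 dpg library 3, 28 dpg library 2 or 28 dpg library 3 (adjusted p up to 0.0794).

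Mast cell genes were higher, with 8 of 16 tested genes up and 0 down (median 0.78). Mcpt4, a chymase of connective tissue mast cells, had 94.9, 100.3 and 127 CPM at 28 dpg, against 42.3, 40.0 and 59.9 CPM at 14 dpg, with no overlap (log2 fold change 1.17 ± 0.29, adjusted p = 0.00911). Mrgprb1 and Mrgprx2, receptors of the Mrgpr family, rose by 1.35 and 1.79 on the log2 scale. Cpa3, the mast cell carboxypeptidase, had 66.5, 64.7 and 88.9 CPM at 28 dpg, against 35.4, 32.3 and 50.4 CPM at 14 dpg, without overlap (log2 fold change 0.89 ± 0.31, adjusted p = 0.0493), and its call was lost without 14 dpg library 1, 14 dpg library 2, 28 dpg library 1, 28 dpg library 2 or 28 dpg library 3 (adjusted p up to 0.162), and with no low-count filter or a 1 CPM filter. The list's count was 4 without 14 dpg library 1 and 5 without 28 dpg library 3.

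Most macrophage and lymphocyte genes did not pass. Of 27 tested macrophage and monocyte genes, 1 rose (median -0.04). This was Mgl2, a lectin of macrophages and dendritic cells, with 71.5, 77.0 and 75.5 CPM at 28 dpg, against 30.9, 15.2 and 37.0 CPM at 14 dpg (log2 fold change 1.42 ± 0.42, adjusted p = 0.0269), with a call lost without 14 dpg library 1, 14 dpg library 2, 28 dpg library 1, 28 dpg library 2 or 28 dpg library 3 (adjusted p up to 0.103). Lyz2, a lysozyme of myeloid cells, had 1304, 838 and 1188 CPM at 28 dpg, against 781, 1004 and 1638 CPM at 14 dpg with overlapping groups (log2 fold change -0.04 ± 0.32, adjusted p = 0.949). Retnla, which is induced by type 2 cytokines, had 85.6, 294 and 109 CPM at 28 dpg, against 11.1, 13.3 and 32.3 CPM at 14 dpg. It rose without overlap (log2 fold change 3.09 ± 0.97, adjusted p = 0.035), and the call was lost without 14 dpg library 1, 14 dpg library 2, 28 dpg library 2 or 28 dpg library 3 (adjusted p up to 0.134), and with no low-count filter. Its log2 fold change was 3.73 without 14 dpg library 3 and 2.35 without 28 dpg library 2. Arg1, the arginase of alternatively activated macrophages and of keratinocytes, had 7.84, 13.0 and 6.24 CPM at 28 dpg, against 24.2, 22.9 and 41.3 CPM at 14 dpg, lower at 28 dpg without overlap, and did not pass (log2 fold change -1.72 ± 0.69, adjusted p = 0.0892). Arg1 passed as a fall with a fit of the compared groups alone.

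Of 24 tested T cell genes, 2 fell (8.33%) and 0 rose (median 0.20), beside 14.2% of all genes that fell. In that list 4 genes were higher, and 3 lower, in each 28 dpg library than in each 14 dpg library. The falling genes were Cd5, an inhibitory coreceptor, and Icos, a costimulator, with log2 fold changes of -0.77 and -0.87. The Icos call was lost without 14 dpg library 3 (adjusted p up to 0.0662). Foxp3, the factor of regulatory T cells, had 1.78, 1.4 and 2.08 CPM at 28 dpg, against 4.38, 3.33 and 3.64 CPM at 14 dpg, and fell without overlap (log2 fold change -1.10 ± 0.24, adjusted p = 0.00413). Ikzf2, which encodes Helios and is also expressed outside T cells, rose (log2 fold change 1.04 ± 0.15, adjusted p = 0.000294). Of 13 tested B and plasma cell genes, 0 passed in edgeR's test, 0 with DESeq2 and 0 in any other setting, and 1 had an unadjusted p under 0.05. Of 38 tested interferon response genes, 1 rose and 3 fell (median -0.18), and the count ranged from 0 without 14 dpg library 2 to 8 without 14 dpg library 1. It was 1 without 14 dpg library 3, 28 dpg library 1 or 28 dpg library 2. Irf7, an interferon-induced regulator, had 29.1, 26.0 and 40.2 CPM at 28 dpg, against 31.8, 80.8 and 69.0 CPM at 14 dpg, with 14 dpg library 1 inside the 28 dpg range (log2 fold change -0.93 ± 0.28, adjusted p = 0.0287). Its call was lost without 14 dpg library 2, 14 dpg library 3, 28 dpg library 1 or 28 dpg library 2 (adjusted p up to 0.133), and with no low-count filter or a fit of the compared groups alone. Cxcl5, a neutrophil-attracting chemokine, had 2.49, 0.419 and 1.25 CPM at 28 dpg, against 15.6, 1.59 and 26.6 CPM at 14 dpg. It fell (log2 fold change -3.28 ± 0.82, adjusted p = 0.0107) although 14 dpg library 2 overlapped the 28 dpg libraries, and the call was lost without 14 dpg library 3 (adjusted p up to 0.0501), and with a fit of the compared groups alone. Its log2 fold change was -2.53 without 14 dpg library 3 and -4.12 without 28 dpg library 1.

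Most metabolic genes tested did not pass. Of 26 tested hypoxia and glycolysis genes, 5 fell (19.2%) and 1 rose (median -0.16), beside 14.2% of all genes that fell. Of 25 tested respiratory chain genes, 7 fell (28%) and 0 rose (median -0.15). In that list 14 of the 25 were lower, and 0 higher, in each 28 dpg library than in each 14 dpg library, beside 24.8% and 17.8% of all genes. Hk2, a hexokinase, had 45.2, 45.1 and 41.6 CPM at 28 dpg, against 73.6, 71.1 and 61.9 CPM at 14 dpg (log2 fold change -0.65 ± 0.14, adjusted p = 0.00496). Cyc1, cytochrome c1 of complex III, had 87.6, 90.7 and 86.6 CPM at 28 dpg, against 112, 117 and 108 CPM at 14 dpg (log2 fold change -0.35 ± 0.06, adjusted p = 0.00123). Neither of these genes overlapped between days. The respiratory chain count was 4 without 14 dpg library 1 or 28 dpg library 3. It was also 4 with upper quartile scaling, which moved the median of all genes from -0.03 to 0.04, beside the list's median of -0.15.

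Immediate early genes were high in 1 library. Fosb, an AP-1 subunit, had 160.3, 12.3 and 8.19 CPM at 28 dpg, against 3.25, 2.17 and 4.81 CPM at 14 dpg, and 28 dpg library 1 was far above the other 5 libraries (log2 fold change 4.14 ± 1.18, adjusted p = 0.0219). Without that library its log2 fold change was 1.56, and the call was lost without 14 dpg library 1, 14 dpg library 2, 14 dpg library 3 or 28 dpg library 1 (adjusted p up to 0.285), and with DESeq2 or a fit of the compared groups alone. Fos, a further AP-1 subunit, had 95.4, 36.3 and 22.2 CPM at 28 dpg, against 16.9, 16.9 and 18.1 CPM at 14 dpg, with 28 dpg library 1 again the highest, and did not pass (log2 fold change 1.59 ± 0.55, adjusted p = 0.0537). Fos passed as a rise with upper quartile scaling, with DESeq2 and without 28 dpg library 3. Atf3, a stress response factor, had 128, 26.3 and 27.1 CPM at 28 dpg, against 15.0, 25.6 and 24.6 CPM at 14 dpg and did not pass (log2 fold change 1.5 ± 0.55, adjusted p = 0.0677). Atf3 passed as a rise with DESeq2 and without 28 dpg library 2 or 28 dpg library 3. Dusp1, a phosphatase of the same early response, had 93.4, 69.9 and 45.6 CPM at 28 dpg, against 22.1, 24.5 and 32.1 CPM at 14 dpg, and rose without overlap (log2 fold change 1.41 ± 0.27, adjusted p = 0.00219). In the list of 20 tested immediate early and heat shock genes, 3 rose and 2 fell (median -0.02).

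The effect of the day differed between C57 and E7 grafts in 27 genes (0.167% of 16189), 3 positive and 24 negative as C57 minus E7. Of the 27, 21 fell, 2 rose and 4 did not pass in C57 grafts, and 1508 genes had an unadjusted p under 0.05 for the difference. Krt16, given above for C57 grafts, had 3310, 3420 and 3168 CPM at 28 dpg, against 4103, 3352 and 3561 CPM at 14 dpg in E7 grafts, whose days overlapped. The log2 difference of its day effects was -3.88 ± 0.41, adjusted p = 0.000862. Btc, which encodes betacellulin, a ligand of the epidermal growth factor receptor, had 49.5, 51.0 and 45.6 CPM at 28 dpg, against 9.76, 10.6 and 8.33 CPM at 14 dpg in C57 grafts, without overlap. In E7 grafts Btc had 14.6, 11.4 and 8.65 CPM at 28 dpg, against 9.81, 11.8 and 11.0 CPM at 14 dpg, with overlap, and the difference was 2.27 ± 0.26, adjusted p = 0.0013. Klk6, a skin serine protease singled out after its values were seen, had 20.9, 21.8 and 24.7 CPM at 28 dpg, against 124, 98.9 and 82.8 CPM at 14 dpg in C57 grafts and 443, 463 and 381 CPM at 28 dpg, against 503, 414 and 477 CPM at 14 dpg in E7 grafts. C57 grafts separated the days and E7 grafts did not (difference -2.07 ± 0.19, adjusted p = 0.000162).

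Stefin A type genes again stood among these. Cstdc5 had 505, 434 and 446 CPM at 28 dpg, against 957, 1489 and 633 CPM at 14 dpg in E7 grafts, lower at 28 dpg without overlap, and fell by more in C57 grafts (difference -3.66 ± 0.49, adjusted p = 0.00871). The difference was -3.63 ± 0.56, adjusted p = 0.0159 for Cstdc6 and -4.01 ± 0.71, adjusted p = 0.0383 for Stfa2, where it was -5.75 without C57 28 dpg library 1. Lpo, which encodes lactoperoxidase, had 0.624, 0.978 and 0.278 CPM at 28 dpg, against 9.76, 6.23 and 8.45 CPM at 14 dpg in C57 grafts and 64.1, 70.9 and 57.8 CPM at 28 dpg, against 66.1, 83.7 and 73.8 CPM at 14 dpg in E7 grafts. Its difference was -3.46 ± 0.53, adjusted p = 0.0146. Birc5, which encodes the mitotic protein survivin, was the 1 member of the mitosis list to pass, with 11.8, 14.3 and 12.8 CPM at 28 dpg, against 26.5, 27.2 and 26.3 CPM at 14 dpg in C57 grafts and 38.4, 39.5 and 37.5 CPM at 28 dpg, against 44.6, 50.7 and 40.8 CPM at 14 dpg in E7 grafts (difference -0.81 ± 0.13, adjusted p = 0.0158). C57 grafts separated the days for Lpo and Birc5, while E7 grafts overlapped for Lpo and separated the days by less for Birc5. The calls on Krt16, Btc and Klk6 held with each of the 12 libraries left out in turn. The Cstdc6 call was lost without C57 28 dpg library 2, C57 28 dpg library 3 or E7 28 dpg library 1 (adjusted p up to 0.074), the Stfa2 call without C57 14 dpg library 1, C57 14 dpg library 3, C57 28 dpg library 2, C57 28 dpg library 3, E7 14 dpg library 1, E7 14 dpg library 2, E7 28 dpg library 1 or E7 28 dpg library 2 (adjusted p up to 0.108), and with no low-count filter, and the Lpo and Birc5 calls without C57 28 dpg library 1 or 3 (adjusted p up to 0.0733 for Lpo and 0.0582 for Birc5).

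**Figure D4:**
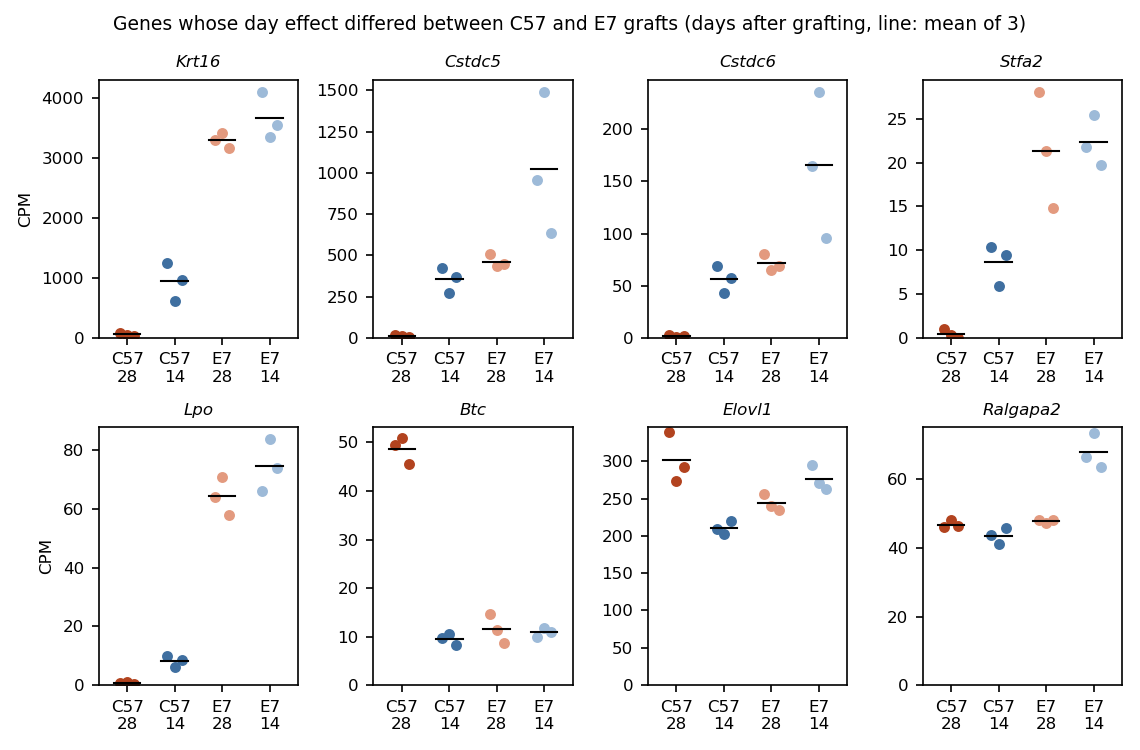
Level in CPM (linear axes from 0) of the 8 genes named by the rule for a day effect that differed between C57 and E7 grafts, per library, with 28 dpg left of 14 dpg for each donor and a line at the mean of 3. Krt16, Cstdc5, Cstdc6, Stfa2 and Lpo lie near 0 in C57 grafts at 28 dpg, and Btc is high in C57 grafts at 28 dpg. Lpo is low in C57 grafts at 14 dpg as well, beside E7 grafts.

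The median log2 difference was -1.40 over the wound-associated epidermal list, -0.60 over the mitosis list, 0.62 over the hair keratin list and 1.14 over the skeletal muscle contractile list, beside -0.05 over all genes tested. For this difference the 4 lists held 1, 1, 0 and 0 called members. The standard errors were wide for muscle, where the difference was 2.24 ± 1.37, adjusted p = 0.659 for Myh4.

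The ungrafted ear skin gave levels to set beside the grafts. It was sequenced on another flow cell, so that grafting, age and sequencing run cannot be told apart and no test was made. On a scale over all 24 libraries, Krt16 averaged 57.4 ± 24.5 CPM at 28 dpg, 954 ± 316 CPM at 14 dpg and 23.6 ± 3.91 CPM in ear skin (SD, n = 3 each). Krt24 averaged 147 ± 40.6 CPM at 28 dpg, 11.8 ± 1.37 CPM at 14 dpg and 297 ± 39.3 CPM in ear skin. Mki67 averaged 126 ± 22.4 CPM at 28 dpg, 279 ± 33.4 CPM at 14 dpg and 99.7 ± 23.5 CPM in ear skin. For these 3 genes the 28 dpg mean lay between the 14 dpg and ear means. Krt71, at 406 CPM at 28 dpg, 2900 CPM at 14 dpg and 0.55 CPM in ear skin, and Lrrc15, at 121, 436 and 9.02 CPM, were lower at 28 dpg than at 14 dpg and above ear skin. Btc exceeded ear skin at 28 dpg, with 48.9 ± 2.68 CPM at 28 dpg, 9.67 ± 1.11 CPM at 14 dpg and 24.4 ± 2.86 CPM in ear skin.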

How the data were processed

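Whole ears and grafts were frozen, total RNA was extracted with Trizol and RNeasy columns, and libraries were made with the TruSeq RNA v2 kit, per the labels' protocols. The values used were whole-number read counts per Entrez gene, 1 file per library, as deposited by the authors. Graft reads passed FastQC and Trimmomatic and the genome was mm10, per the submitters' processing notes, which also name bcl2fastq 1.8.4 for ear libraries. The aligner, counter, annotation and use of strand are not given in the sources used here. Counts of antisense, overlapping and near-identical genes (the Krtap, Sprr2, Lce, Stfa, Hba and Ccl21 families, Krt6a with Krt6b, and genes with many pseudogenes) were therefore uncertain.

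Of 27180 rows, 25275 matched RefSeq gene symbols, 1 held the E7 transgene and 1904 did not match. The unmatched rows held 0.938 to 1.236% of the counts of a C57 graft library. Genes were filtered with filterByExpr (minimum count 10, minimum total 15), scaled by TMM and tested in edgeR 4.0.16 (limma 3.58.1, R 4.3.3) by robust quasi-likelihood fits over the 18 graft libraries, with Benjamini-Hochberg adjustment over 16189 genes and a threshold of 0.05. The biological coefficient of variation was 0.149 over these libraries and 0.125 over the 6 C57 grafts. The day effect in C57 grafts, and its difference from that in E7 grafts, were contrasts of this fit. An SE was the log2 fold change divided by the square root of F. Tables (pandas 2.3.3) and figures (matplotlib 3.10.9) were made in Python 3.11.15 with scipy 1.17.1 over numpy 2.4.6, and the fitting code was tested on simulated data. A group with 0 counts was set to 3 counts over the group, 0.117 CPM at 28 dpg, a floor that covers counting error only.

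The comparison, gene lists (42, with 933 of 935 entries matched to a row) and motifs were chosen with earlier results of these data known, so counts over lists are descriptions. Genes were named by a rule: the 12 largest rises and falls among called genes with a mean of 1 CPM or more on the higher day and no overlap between days, the 3 members of each list with the lowest adjusted p and the 3 with the highest level, the 5 largest differences between donors in each direction, and a panel of common markers. The rule named 261 genes, of which a part is described. Other members named in the text were chosen after their values were seen. Alternatives were other scalings (RLE, upper quartile), other filters, DESeq2 1.42.0, a fit of the compared groups alone, a replicate block and each library left out in turn. Depth per library was 6550011 to 11069475 counts over the 18 grafts.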

Additional observations from a re-analysis of the deposited data

Results flagged for a closer look

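For 10 genes given here the effect of the day differed between C57 and E7 grafts by a test of the difference itself, as C57 minus E7 on the log2 scale in edgeR's quasi-likelihood test with Benjamini-Hochberg adjustment over 16189 genes. The difference was positive for Btc (2.27), Elovl1 (0.70) and Ralgapa2 (0.61). It was negative for Stfa2 (-4.01), Krt16 (-3.88), Cstdc5 (-3.66), Cstdc6 (-3.63) and Lpo (-3.46), and for Klk6 (-2.07) and Birc5 (-0.81), both chosen after their values were seen.

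Elovl1 had 339, 273 and 293 CPM at 28 dpg, against 209.7, 202 and 219 CPM at 14 dpg in C57 grafts, and 257, 240.1 and 235 CPM at 28 dpg, against 295, 271 and 263 CPM at 14 dpg in E7 grafts. Ralgapa2, a GTPase-activating protein subunit, had 46.1, 48.1 and 46.3 CPM at 28 dpg, against 43.7, 41.3 and 46.0 CPM at 14 dpg in C57 grafts, where it did not pass, and 48.0, 47.3 and 48.0 CPM at 28 dpg, against 66.6, 73.6 and 63.6 CPM at 14 dpg in E7 grafts. Krt16, Btc and Klk6 passed with each of 12 libraries left out. Cstdc5 also passed, with an adjusted p of up to 0.0346. The Ralgapa2 call was lost without any of the 12 libraries other than E7 14 dpg library 3 (adjusted p up to 0.118). The Elovl1 call was lost without any other than C57 28 dpg library 2 and E7 14 dpg library 3 (adjusted p up to 0.151). The Stfa2 call was lost without C57 14 dpg library 1, C57 14 dpg library 3, C57 28 dpg library 2, C57 28 dpg library 3, E7 14 dpg library 1, E7 14 dpg library 2, E7 28 dpg library 1 or E7 28 dpg library 2 (adjusted p up to 0.108), and with no low-count filter. That on Cstdc6 was lost without C57 28 dpg library 2, C57 28 dpg library 3 or E7 28 dpg library 1 (adjusted p up to 0.074). The Lpo call was lost without C57 28 dpg library 1 or C57 28 dpg library 3 (adjusted p up to 0.0733), and so was that on Birc5, with an adjusted p of up to 0.0582.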

How the results depend on the processing

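The number of genes changed in C57 grafts, 3661 in the fit reported, was within 1.5 times that value under every alternative run: 3567 with RLE scaling, 3531 with upper quartile scaling, 3131 with no low-count filter, 3666 with a 1 CPM filter, 3524 with DESeq2, 3745 with the compared groups alone and 2595 to 3152 with 1 library left out, lowest without 14 dpg library 1. Upper quartile scaling gave 52.2% rises against 37.1%, and moved the median of all genes to 0.04. The number of genes whose day effect differed between donors was 27, and it was 155 with DESeq2 (69 positive), 55 with the compared groups alone and 12 to 72 with 1 library left out, lowest without C57 28 dpg library 3 and highest without E7 14 dpg library 3. The cause was not tested. Of 127 called genes named in the text, 84 kept the call in every alternative run, 36 lost it with some library left out, 24 under some other setting, and 0 reversed. Of 31 named genes that did not pass, 8 passed with DESeq2.

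The labels tie nothing to the replicate numbers. The deviations of same-numbered 28 dpg and 14 dpg libraries from their group means correlated at -0.040, 0.297 and 0.095. Libraries 2 and 3 of 28 dpg correlated most with their own number, and library 1 with 14 dpg library 3 (0.222), so not every pair passed 0.1. With the replicate number as a block, 4106 genes passed in C57 grafts (1967 rises and 2139 falls), 46 passed for the difference between donors, 17 of 30 hair keratin genes fell, and 14 of the called genes named lost the call, Krt71, Tchh and Fosb among them. The numbers were not read as pairs, so calls lost or gained under the block are not given beside single genes.

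Depth limits the genes near 0, such as Csta3 and Sprr2f, where a few counts decide a fold. With 3 libraries a day, calls on muscle, fat, mast cell and interferon genes moved with single libraries. Day, host tissue under the graft and the phase of the hair cycle cannot be told apart, and the labels give neither age nor animal of the grafts.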

Other observations

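Proteins of the elastic fibre and small proteoglycans gave few calls, with 1 rise and 1 fall among 23 tested genes (median 0.15). Fbn2, a fibrillin of developing and healing tissue, had 62.2, 33.0 and 46.9 CPM at 28 dpg, against 122.9, 89.8 and 145 CPM at 14 dpg. It fell without overlap (log2 fold change -1.32 ± 0.42, adjusted p = 0.0348), a call lost without 14 dpg library 1, 14 dpg library 3, 28 dpg library 2 or 28 dpg library 3 (adjusted p up to 0.125), and with no low-count filter, and 0 members of the list fell without 14 dpg library 1, 28 dpg library 2 or 28 dpg library 3. Decorin (Dcn), the proteoglycan of mature dermal collagen, had 2450, 1732 and 2716 CPM at 28 dpg, against 1200, 998 and 1828 CPM at 14 dpg, with overlap, and did not pass (log2 fold change 0.78 ± 0.29, adjusted p = 0.0713). Dcn passed as a rise with DESeq2 and without 14 dpg library 3. Of 22 tested complement genes, 2 rose (9.09%, median 0.29), near the 8.4% of all genes. C7, a subunit of the membrane attack complex, had 3.56, 3.49 and 3.89 CPM at 28 dpg, against 1.0, 1.01 and 0.587 CPM at 14 dpg, without overlap (log2 fold change 2.07 ± 0.43, adjusted p = 0.00307), and C2, a protease of the classical pathway, had 71.9, 59.8 and 90.6 CPM at 28 dpg, against 37.5, 41.8 and 52.0 CPM at 14 dpg, also without overlap (log2 fold change 0.76 ± 0.17, adjusted p = 0.00477). Of 16 tested acute inflammatory cytokine genes, Il1a, an alarmin of keratinocytes, fell, with 10.6, 10.5 and 11.5 CPM at 28 dpg, against 15.0, 15.8 and 16.4 CPM at 14 dpg (log2 fold change -0.54 ± 0.13, adjusted p = 0.00806). Il1b, the interleukin-1 of myeloid cells, had 14.9, 2.1 and 4.86 CPM at 28 dpg, against 5.76, 5.36 and 28.9 CPM at 14 dpg and did not pass (log2 fold change -0.81 ± 0.66, adjusted p = 0.419).

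Genes of red blood cells did not move as 1 group. Hba-a1, an alpha globin gene with a near-identical copy, had 98.5, 29.8 and 63.8 CPM at 28 dpg, against 18.9, 10.7 and 32.3 CPM at 14 dpg, with overlap. It rose (log2 fold change 1.63 ± 0.55, adjusted p = 0.0459), and the call was lost without 14 dpg library 1, 14 dpg library 2, 28 dpg library 1 or 28 dpg library 3 (adjusted p up to 0.187), and with no low-count filter or a fit of the compared groups alone. Slc4a1, the red cell anion exchanger, had 1.69, 0.559 and 1.25 CPM at 28 dpg, against 8.63, 6.66 and 4.81 CPM at 14 dpg, and fell without overlap (log2 fold change -2.44 ± 0.53, adjusted p = 0.0039). Of 17 tested cytotoxic lymphocyte genes, 2 rose (11.8%, median 0.06), near the 8.4% of all genes. These were Gzmc, a granzyme, and Xcl1, a chemokine, which rose by 1.12 and 1.15 on the log2 scale. The Gzmc call was lost without 14 dpg library 1, 14 dpg library 3 or 28 dpg library 2 (adjusted p up to 0.0982), and the Xcl1 call without 14 dpg library 1, 14 dpg library 2, 14 dpg library 3, 28 dpg library 1 or 28 dpg library 2 (adjusted p up to 0.143). The cytotoxic count was 0 without 14 dpg library 1, 14 dpg library 3 or 28 dpg library 2, and 1 without 14 dpg library 2 or 28 dpg library 1. Cd1d1, which encodes the lipid antigen-presenting molecule deleted in the CD1d-/- donors of the series, did not pass (log2 fold change 0.42 ± 0.31, adjusted p = 0.363). It had 15.1, 27.7 and 21.2 CPM at 28 dpg, against 16.3, 15.5 and 15.6 CPM at 14 dpg in C57 grafts.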
